A study of Mus musculus with 4 samples.

Results

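Rows for the subunits of the mitochondrial respiratory chain, and for gene products named after them, were examined in T helper 17 (Th17) cells given SAA1 (serum amyloid A1), a protein of the acute-phase response. Members were chosen by symbol alone, as every row beginning with Nduf, Uqcr, Cox4 to Cox8 or Atp5 and the 4 rows Sdha to Sdhd. This gave 92 of the 23356 rows of the authors' table. The symbol rule uses no measured value, but it was set with earlier results of these data known. Of these rows, 36 are subunits of complex I, 4 of complex II, 8 of complex III, 18 of complex IV and 15 of complex V. A further 10 are assembly or related factors (Ndufaf1 to Ndufaf7, Atp5s, Atp5sl and Cox7a2l), and 1, Ndufa4l2, is a paralogue of a complex IV subunit.

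RNA was sequenced from T cells of C57BL/6 mice, labelled as 6 to 8 weeks old, after 48 h of Th17 culture. There were 2 libraries given vehicle, whose treatment label is none, and 2 given recombinant murine SAA1 labelled as 2 ng/ml. The labels state neither whether the libraries of a group came from separate mice or cultures nor how many mice were pooled, so the authors' p-values may measure technical spread only. Expression is the authors' single value per group, in FPKM, a fragment count scaled to transcript length and to the mapped fragments. Values per library were not analysed here, so the spread between replicates and the read depth are unknown. Each change is a log2 ratio of the SAA1 to the vehicle value, and its standard error (SE) is the ratio over the authors' test statistic.

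The respiratory chain sits in the inner mitochondrial membrane. Complexes I and II pass electrons from NADH and succinate to ubiquinone, complex III passes them on to cytochrome c, and complex IV reduces oxygen. Complexes I, III and IV pump protons, and complex V, the ATP synthase, uses the proton gradient to make ATP. The core of several complexes is encoded partly in mitochondrial DNA, and transcripts of those genes were not analysed here.

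The SAA1 and vehicle values of the chain lay close together in every complex, and no member passed the authors' test. Cuffdiff tested 87 members, and 0 had an adjusted p (Benjamini-Hochberg over all tested rows) under 0.05 in the authors' deposited table. Over all genes, 749 of 11481 tested rows did, or 6.52%. At an unadjusted p under 0.05 there were 2 members, Cox7a1 and Atp5s, against 15.8% of all tested rows. A normal p computed from the same statistic called 0 members and put 0 under 0.05 before adjustment. The chain is abundant, so the 66 members with at least 50 FPKM in vehicle cells were also set beside other rows that abundant, a limit chosen after the values were seen. None of the 66 was called, and 3.09% of 2105 such rows were.

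In at least 1 group, 85 members reached 1 FPKM. Their median log2 ratio was -0.02, the same to 2 decimals as that of all 10701 rows past that minimum, with 35 members above 0 and 50 below. The middle 50% of members lay between -0.11 and 0.06, and that of all rows between -0.16 and 0.12. The values of 63 of the 85 members, 74.1%, were within 1.1-fold of each other, and so were those of 48.7% of all tested rows past the minimum. Among rows with at least 50 FPKM the shares were 80.3% (53 of 66) and 61.0%. All 66 of these abundant members lay within 1.25-fold, as did 1894 of the 2105 rows as abundant. The widest ratio among them belonged to Atp5e, at 1.19-fold lower, whereas the narrowest ratio that was called among all rows of at least 50 FPKM was 1.33-fold. The 3 members outside 1.25-fold, Cox7a1, Cox6b2 and Atp5s, all had less than 5 FPKM in vehicle cells.

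**Figure D1:**
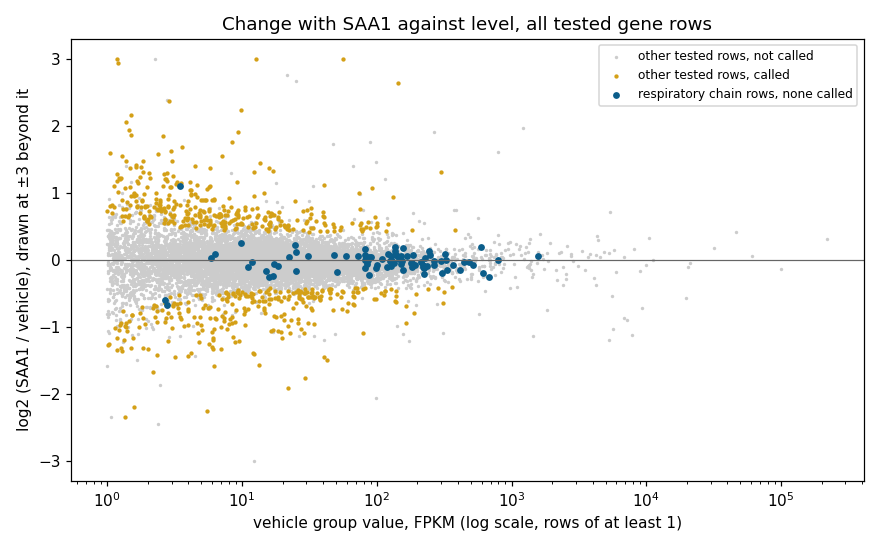
The log2 ratio of SAA1 to vehicle (vertical axis) is plotted against the vehicle value in FPKM on a log scale (horizontal axis). Tested rows with at least 1 FPKM in vehicle cells are drawn. Members of the chain are in blue, other rows that were called in gold and the remaining rows in grey. The most extreme ratios are drawn at the limit named on the axis. Members with at least 50 FPKM lie within a 1.25-fold difference, and only members under 5 FPKM lie farther out than 1.25-fold.

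A p that misses the threshold does not show that values were equal, so the 95% intervals of the ratios were counted. Of the 85 members, 79 had an interval wholly inside a 2-fold difference in both directions and 62 inside a 1.5-fold difference. The median SE of members was 0.21, and that of all tested rows with at least 50 FPKM was 0.20. Many abundant members had almost the same SE, such as Uqcrc2, Sdha and Cox4i1 at 0.20, so for them the counts mainly follow the size of the ratio. The intervals come from the statistic behind the authors' p-values, so they too may measure technical spread only. The deposited p was below the normal p of the same statistic in all 87 tested members, so the intervals given here are wider than those p-values imply.

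Complex I, the NADH dehydrogenase, was represented by 36 rows, all of them tested. Their vehicle values ran from 5.88 FPKM (Ndufab1) to 330 FPKM (Ndufb6), with a median of 123 FPKM, and their median log2 ratio was -0.01. Of the 36, 16 ratios were above 0 and 20 below, with a range from -0.22 to 0.23. The 7 nuclear-encoded core subunits, which together hold the flavin and the iron-sulphur clusters, had a median ratio of 0.05, and the 29 accessory subunits one of -0.02.

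Ndufv1, which binds NADH and the flavin, was at 109.7 FPKM with vehicle and 110.8 FPKM with SAA1. Its partner Ndufv2 was at 133 and 129 FPKM. Both pairs of values lie within 1.1-fold. Ndufs1, the largest subunit of the electron-input module, was at 73.1 and 76.1 FPKM. Of the core subunits nearer the quinone, Ndufs3 was at 30.7 and 31.9 FPKM, and Ndufs8 was at 85.3 and 84.1 FPKM. These values also lie within 1.1-fold. Ndufs7, which holds the cluster next to the quinone site, was at 90.1 and 93.1 FPKM with an SE of 1.84, for which its locus is described further on.

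Among the accessory subunits, Ndufb6 was at 330 and 298 FPKM, and Ndufa3 was at 328 FPKM in both groups. These were the most abundant of the complex. Ndufs5 stood at the upper end of the ratios, with 24.7 and 28.9 FPKM (log2 ratio 0.23 ± 0.42). Ndufv3 followed with 137 and 157 FPKM (0.19 ± 0.23). At the lower end were Ndufb3 with 87.9 and 75.5 FPKM (-0.22 ± 0.22) and Ndufa7 with 222 and 192 FPKM (-0.21 ± 0.21). Each of these ratios was about the size of its SE or smaller. Ndufs4 and Ndufs6, accessory subunits of the electron-input side, had 50.7 and 44.6 FPKM, and 100.2 and 95.1 FPKM. Ndufab1, the mitochondrial acyl carrier protein that also serves fatty acid synthesis, was the least abundant row of the complex, at 5.88 and 6.01 FPKM.

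**Figure D2:**
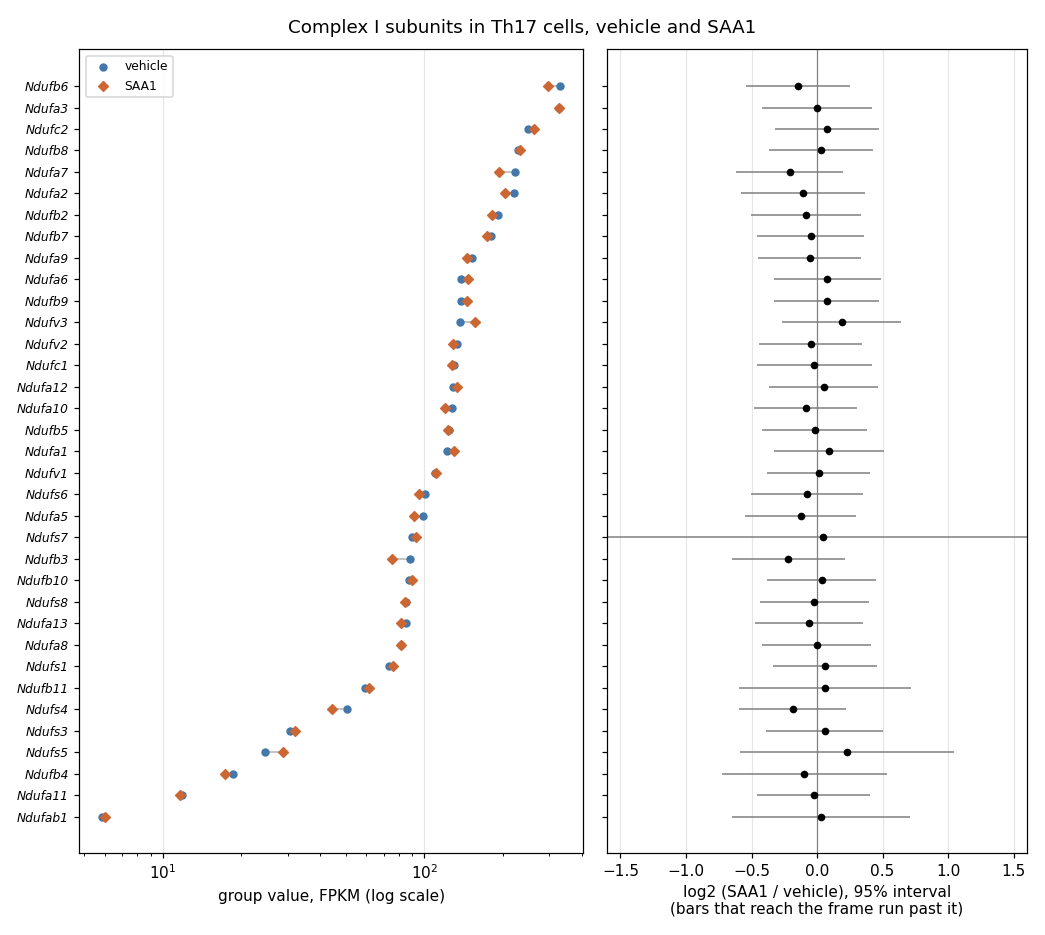
Left, the authors' vehicle (circles) and SAA1 (diamonds) values of 35 of the 36 complex I subunits in FPKM on a log scale; right, the log2 ratio with its 95% interval. The markers of a row lie nearly on top of each other and every interval spans 0, the widest being that of Ndufs7.

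Complex II, the succinate dehydrogenase, also works in the citric acid cycle and is encoded wholly in the nucleus. Its flavoprotein Sdha was at 136 and 149 FPKM, and its iron-sulphur subunit Sdhb was at 151 and 158 FPKM. The membrane anchors lay on the other side of 0: Sdhc was at 156 and 140 FPKM, and Sdhd at 224 and 205 FPKM. The 4 log2 ratios were 0.13, 0.06, -0.15 and -0.12, each below its SE of 0.20, so the order of the subunits by ratio is not resolved.

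Complex III, the cytochrome bc1 complex, was represented by 8 rows with a median of 175 FPKM. Uqcr10, a small subunit, was the most abundant at 612 and 536 FPKM, with the lowest ratio of the complex (-0.19 ± 0.20). Uqcrfs1, the Rieske iron-sulphur protein, had the highest ratio, at 185 and 195 FPKM (0.08 ± 0.20). The other 6 had ratios between these. The core proteins Uqcrc1 and Uqcrc2 had 155 and 153 FPKM, and 184 and 178 FPKM. Uqcrh, the hinge protein, was at 265 and 252 FPKM, and Uqcrb, named for ubiquinone binding, at 81.4 and 74.5 FPKM. Uqcr11 was at 167 and 173 FPKM, and Uqcrq at 86.8 and 86.4 FPKM. The ratios of 2 of the 8 were above 0 and those of 6 below.

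Complex IV, cytochrome c oxidase, is the complex whose nuclear subunits come in isoforms, some of them known from heart and skeletal muscle, lung or testis. In every isoform family 1 ubiquitous form made up nearly all of the family's summed FPKM. Cox4i1 was at 592 and 680 FPKM (log2 ratio 0.20 ± 0.20), whereas Cox4i2, known from lung and from low oxygen, was listed at 0.175 and 0.240 FPKM and not tested. Cox6a1 was at 320 and 341 FPKM, beside 0.754 and 0.290 FPKM for the muscle form Cox6a2. Cox6b1 was at 484 and 474 FPKM, beside 2.76 and 1.72 FPKM for the testis form Cox6b2. Cox8a was at 447 and 439 FPKM, whereas the muscle form Cox8b was listed at 0.156 and 0 FPKM. The rows Cox8c and Cox7b2 were listed at 0 in both groups. The ubiquitous form thus held from 98.9% (Cox7a2, of Cox7a1 and Cox7a2) to 100% of its family in vehicle cells.

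The muscle form Cox7a1 had the smallest p-value of all members. It was at 3.49 FPKM with vehicle and 7.50 FPKM with SAA1, 2.15-fold higher, a log2 ratio of 1.10 ± 0.57 (SE) with a 95% interval from -0.01 to 2.21. Its unadjusted p was 0.01135 and its adjusted p was 0.121, from Cuffdiff in the authors' deposited table, so it did not pass. Its ubiquitous counterpart Cox7a2 was at 307 and 267 FPKM (-0.20 ± 0.20). Cox7a1 was 1.12% of the summed FPKM of both forms with vehicle and 2.73% with SAA1, and depth is unknown, so these shares have no counting interval. Neither row shares its locus: Cox7a1 lies on chromosome 7 from 30184171 to 30186030 and Cox7a2 on chromosome 9 from 79755241 to 79759853 (mm10, whole gene).

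The other complex IV subunits were at similar values in both groups. Cox5a, a matrix-side subunit, was at 265 and 261 FPKM, and the zinc-binding Cox5b was at 83.7 and 86.4 FPKM. Cox6c was at 245 and 269 FPKM, and Cox7b at 183 and 170 FPKM. Ndufa4, named as a complex I subunit but now placed in complex IV, was at 371 and 351 FPKM. Its paralogue Ndufa4l2, known as a target of hypoxia-inducible factor, was listed at 0.724 and 0.896 FPKM with an SE of 4.46. Ndufa4l2 shares its locus with Shmt2, a one-carbon enzyme at 129 and 170 FPKM, so its low values are uncertain.

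**Figure D3:**
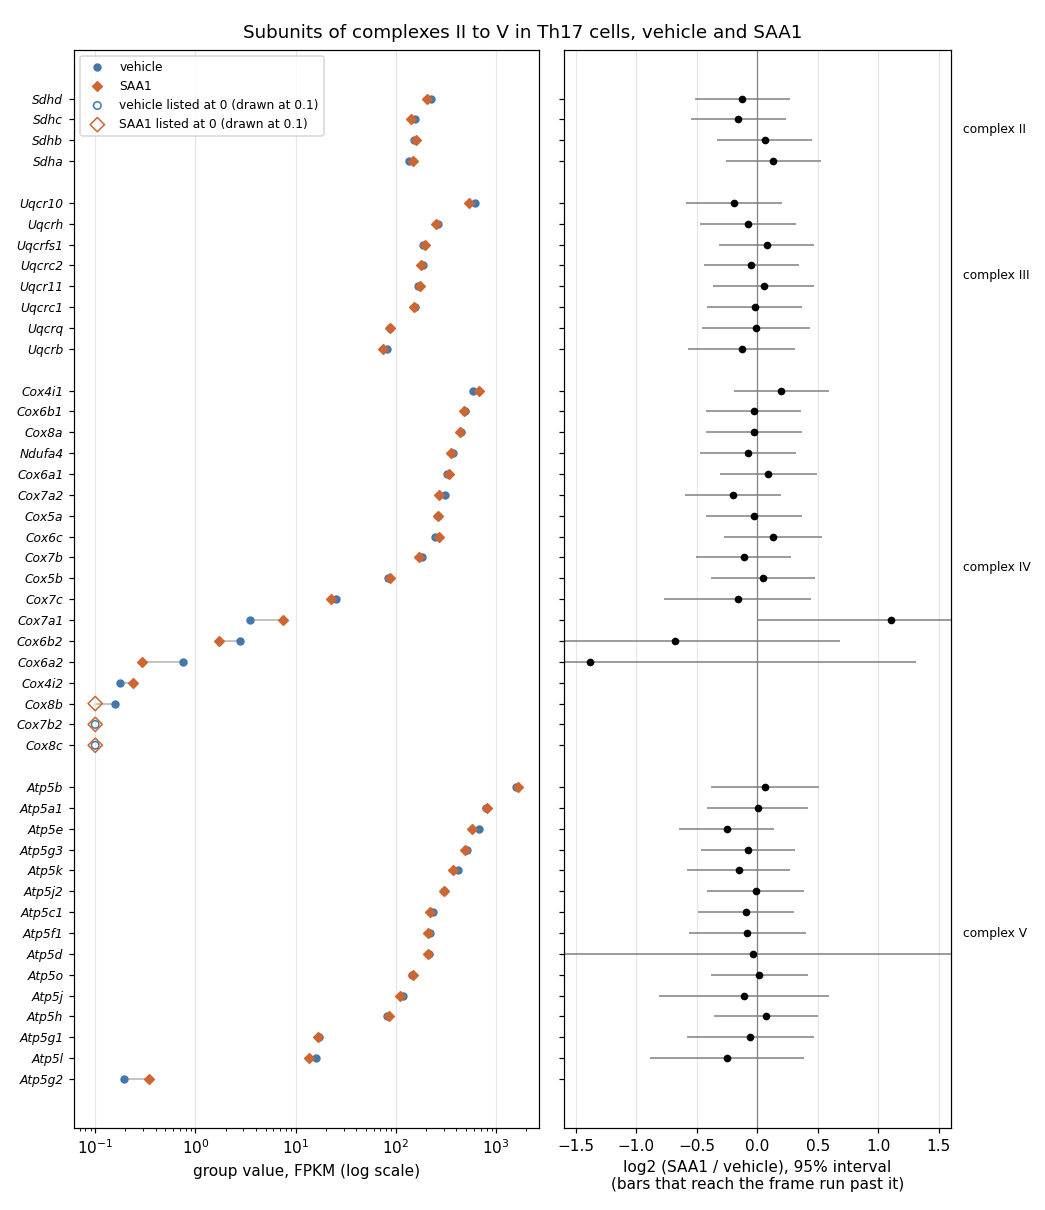
Left, the authors' vehicle (circles) and SAA1 (diamonds) values of the subunits of complexes II to V in FPKM on a log scale, with open markers for values listed at 0; right, the log2 ratio of tested rows with its 95% interval. The muscle, lung and testis forms of complex IV and Atp5g2 lie to the left of the other rows. Of these forms Cox7a1, at 3.49 and 7.50 FPKM, lies nearest to the other rows. It is also the row farthest to the right among the ratios.

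Complex V had the most abundant members. Atp5b and Atp5a1, the catalytic and non-catalytic subunits of the F1 head, had 1572 and 1642 FPKM, and 799 and 802 FPKM. Atp5b ranked 59 among all rows of the table. The other rows of the F1 head were lower: Atp5c1, the rotating shaft, was at 235 and 220 FPKM, and Atp5d at 214 and 210 FPKM. The smallest subunit of the head, Atp5e, was at 679 and 570 FPKM (log2 ratio -0.25 ± 0.20). Its unadjusted p was 0.07055 and its adjusted p 0.379, from Cuffdiff in the authors' deposited table. Among members with at least 50 FPKM this ratio was the farthest from 0.

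In the peripheral stalk, which holds the head still, Atp5f1 was at 220 and 208 FPKM and Atp5o at 145 and 147 FPKM. Atp5h was at 81.4 and 85.6 FPKM, and Atp5j at 119 and 110 FPKM. These ratios fall on both sides of 0. The membrane subunits Atp5j2, Atp5k and Atp5l were at 302 and 299, 412 and 370, and 16.0 and 13.4 FPKM. Atp5l had a log2 ratio of -0.25 ± 0.32, as low as that of Atp5e but with a larger error. Of the 14 tested subunits, 4 ratios were above 0 and 10 below, with a median of -0.07. With pseudogene-copy rows left out this median was -0.03, as was that of complex III, so the order of the complexes by median is not resolved. Rows of at least 50 FPKM over the whole table had a median of -0.05, with 812 above 0 and 1293 below.

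The ring that turns in the membrane is built of subunit c, which Atp5g1, Atp5g2 and Atp5g3 encode with different import signals and the same mature protein. Their levels were far apart: Atp5g3 was at 515 and 489 FPKM, Atp5g1 at 17.2 and 16.5 FPKM, and Atp5g2 at 0.192 and 0.345 FPKM and not tested. Atp5g3 was 96.7% of the family's summed FPKM in both groups. The annotated copies of Atp5g2 bear on its low value. In the GENCODE vM21 annotation, 2 pseudogenes, Gm10175 on chromosome 7 and Gm10231 on chromosome 17, together cover 100% of the Atp5g2 coding transcript compared, at an identity of at least 95%. The last 90 coding bases before the stop codon are shown for the 3 genes and both pseudogenes, because they let Atp5g2 be compared with its copies and with its sister genes. Capitals mark bases that differ from Atp5g2.
Atp5g2: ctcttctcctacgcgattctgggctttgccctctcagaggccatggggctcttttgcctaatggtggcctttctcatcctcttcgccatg
Gm10175: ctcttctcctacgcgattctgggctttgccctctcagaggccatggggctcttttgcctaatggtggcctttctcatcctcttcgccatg
Gm10231: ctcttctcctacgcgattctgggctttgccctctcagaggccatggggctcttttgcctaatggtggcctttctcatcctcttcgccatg
Atp5g1: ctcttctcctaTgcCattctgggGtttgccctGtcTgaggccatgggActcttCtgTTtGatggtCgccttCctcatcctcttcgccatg
Atp5g3: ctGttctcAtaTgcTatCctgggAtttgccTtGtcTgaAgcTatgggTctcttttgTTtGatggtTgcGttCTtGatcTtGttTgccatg
All are read on the minus strand of GRCm38: Atp5g2 on chromosome 15 from 102663017 to 102663106, Gm10175 on chromosome 7 from 23946853 to 23946942, Gm10231 on chromosome 17 from 5816203 to 5816292, Atp5g1 on chromosome 11 from 96073107 to 96073196 and Atp5g3 on chromosome 2 from 73908596 to 73908685. Both pseudogenes have 0 differences from Atp5g2 over these bases, Atp5g1 has 12 and Atp5g3 has 23. Not given in the sources used here is the authors' handling of reads that match several places. Its part in the Atp5g2 value was not tested, and the level of Atp5g2 is uncertain.

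Near-identical pseudogene copies were then counted for all members, as alignments of at least 100 bases at 95% identity or more to a transcript of the gene. Of 91 members matched to the annotation, 22 had a copy, or 24.2%, against 10.8% of 9471 other rows with at least 1 FPKM. Copies were found at every level of abundance, and the shares differed, though that difference was not tested. Of the 10 subunits between 1 and 50 FPKM in vehicle cells, 7 had a copy (Ndufab1, Ndufb4, Ndufs3, Ndufs5, Cox7c, Atp5g1 and Atp5l), and of the 65 with at least 50 FPKM, 13 had one. The largest number, 9 copies, belonged to Atp5l, at 16.0 FPKM, and Cox7c, at 25.02 and 22.36 FPKM, had 4. Yet Atp5h, also with 4 copies, was at 81.4 FPKM, and Atp5k, with 1, at 412 FPKM. Of the 45 matching pseudogenes, 2 had a row of their own in the table. The levels of members with copies are uncertain, and their median log2 ratio was -0.06 beside -0.02 for members without.

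One of those pseudogene rows, BC002163, lies in the same deposited locus as Ndufs5 and matches it over 319 bases. BC002163 was at 41.9 and 41.1 FPKM, above Ndufs5 itself at 24.7 and 28.9 FPKM. Summed, the rows gave 66.6 and 70.1 FPKM, so the ratio of Ndufs5, the highest of complex I, was nearer 1 in the sum.

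**Figure D4:**
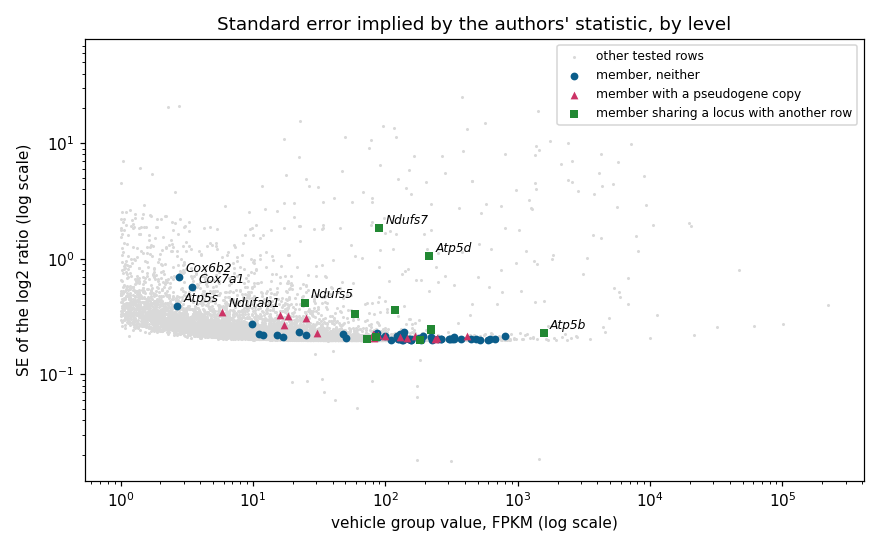
The SE of the log2 ratio (vertical axis, log scale) is plotted against the vehicle value in FPKM (horizontal axis, log scale) for tested rows with at least 1 FPKM, with members that have a pseudogene copy as triangles, members sharing a locus as squares and other members as circles. Most members drawn lie near 0.20, and Ndufs7 and Atp5d are the highest of them at 1.84 and 1.05; Ndufa4l2 and Cox6a2, under 1 FPKM, are not drawn and had SEs of 4.46 and 1.37.

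Rows with the same deposited locus were counted next, since reads of overlapping genes can belong to either row. Whether the genes within a shared locus overlap each other was not checked. A total of 13 members shared their deposited locus with another row. Those with a single partner were Ndufa13 (with Tssk6), Ndufa2 (Tmco6), Ndufb11 (Rbm10), Ndufs1 (Gm11602), Ndufs5 (BC002163), Uqcrc2 (Pdzd9), Atp5b (Mir677), Atp5f1 (Wdr77), Atp5j (Gabpa) and Ndufa4l2 (Shmt2). Cox6a2 shared its locus with Itgad and 4931431B13Rik. The median SE of the 11 members that shared a locus and reached 1 FPKM was 0.25, beside 0.21 for the 74 tested members alone at theirs. It leaves out Ndufa4l2 and Cox6a2, under 1 FPKM, with SEs of 4.46 and 1.37. Over the whole table, 3.27% of tested rows sharing a locus were called, and 7.34% of those alone.

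Ndufs7 and Atp5d lay in a single deposited locus of 672333 bases on chromosome 10, from 79697305 to 80369637 (mm10), which holds 46 rows. Of these, 30 were tested and 0 were called by Cuffdiff, with 0 under an unadjusted p of 0.05 and a smallest adjusted p (0.918) taken from the authors' deposited table. The median SE of tested rows with at least 1 FPKM was 1.82 in this locus, against 0.22 over the whole table. The 95% interval of Ndufs7 ran from -3.56 to 3.65 on the log2 scale, although its values of 90.1 and 93.1 FPKM were close. The narrowest ratio called among rows of at least 50 FPKM, 0.41 on the log2 scale, lies well inside the intervals of both members.

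The 10 assembly and related factors were less abundant than the subunits, with a median of 16.0 FPKM, and had a median log2 ratio of 0.06. Factors of complex I assembly fell on both sides of 0. Ndufaf3 was at 9.82 and 11.7 FPKM (log2 ratio 0.26 ± 0.27), the highest, and Ndufaf1 was at 25.1 and 27.4 FPKM. Ndufaf2, which takes the place of an accessory subunit during assembly, was at 47.9 and 50.6 FPKM. Ndufaf4 was at 16.9 and 14.4 FPKM (-0.23 ± 0.21), and the methyltransferase Ndufaf7 at 15.1 and 13.5 FPKM. Ndufaf5 and Ndufaf6 had 11.1 and 10.3 FPKM, and 22.5 and 23.0 FPKM. Only Ndufaf4 among the Ndufaf rows had a ratio beyond its SE. Cox7a2l, a relative of Cox7a2 known for joining complexes III and IV into supercomplexes, was at 82.3 and 92.4 FPKM (0.17 ± 0.21). Atp5s, also called factor B, was at 2.68 and 1.76 FPKM, a log2 ratio of -0.61 ± 0.39 (SE). Its unadjusted p was 0.031 and its adjusted p was 0.232, from Cuffdiff in the authors' deposited table. Atp5sl was at 6.27 and 6.66 FPKM.

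**Figure D5:**
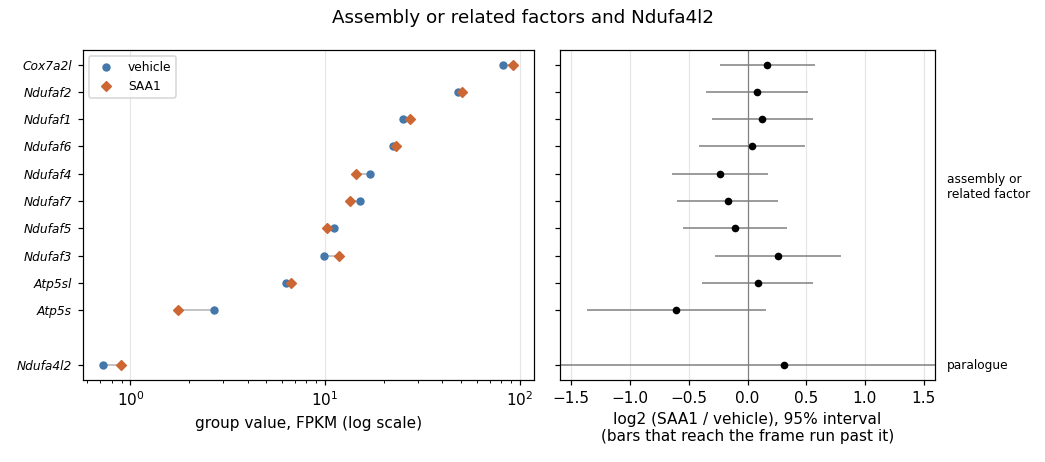
Left, the authors' vehicle (circles) and SAA1 (diamonds) values of the assembly and related factors and of Ndufa4l2 in FPKM on a log scale; right, the log2 ratio with its 95% interval. Every interval spans 0, that of Atp5s lies mostly to the left of it, and that of Ndufa4l2 runs past both sides of the frame.

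Promoters were compared because nuclear respiratory factor 1 (NRF1), the ETS factor GABP and YY1 are known regulators of respiratory chain genes. RefSeq promoter windows of 300 bases (250 before and 50 after a gene's start, GRCm38.p6) were found for 73 of the 92 members, in 78 windows. The 19 members without a matched entry include Ndufa2, Ndufb9, Ndufs1, Sdhc, Uqcrb, Uqcrc2, Uqcrq, Cox4i1, Cox4i2, Cox6a2, Cox6c, Cox8c, Atp5a1, Atp5f1, Atp5s, Atp5sl, Ndufaf6 and Ndufa4l2. Each window was searched on both strands for the letters GCATGCGC (NRF1 core), CCGGAAG (ETS core) and AAGATGGC (YY1 core), none of which contains another. The NRF1 letters were in 12 of the 78 windows, or 15.4%, against 5.76% of windows of genes with at least 1 FPKM and 2.71% of all 32851 windows. The ETS letters were in 17 windows, 21.8%, against 19.6% of windows of expressed genes and 8.86% of all. The YY1 letters were in 9, or 11.5%, against 4.92% and 2.75%.

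A stretch of 60 bases around the NRF1 letters is shown for 1 subunit each of complexes I, II, IV and V, to show that the same letters stand in promoters of subunits of different complexes, with those letters in capitals.
Ndufa6: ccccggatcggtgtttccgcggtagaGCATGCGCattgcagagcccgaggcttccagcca
Sdhb: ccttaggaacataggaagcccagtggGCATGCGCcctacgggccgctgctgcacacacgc
Cox6a1: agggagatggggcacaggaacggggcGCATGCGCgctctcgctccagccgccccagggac
Atp5k: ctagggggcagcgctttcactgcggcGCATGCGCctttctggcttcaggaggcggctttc
The stretches lie at chr15:82354341-82354400 on the minus strand for Ndufa6, chr4:140961191-140961250 on the plus strand for Sdhb, chr5:115349085-115349144 on the minus strand for Cox6a1 and chr5:108434414-108434473 on the minus strand for Atp5k. The capitals begin 83, 54, 160 and 48 bases before the gene's start. Ndufa6 was at 139 and 147 FPKM, and the values of Sdhb, Cox6a1 and Atp5k are given above. A match describes letters only, and binding was not measured. The regulators' own rows were close between groups: Nrf1 was at 42.8 and 41.8 FPKM, Gabpa at 31.9 and 31.0 FPKM and Yy1 at 68.2 and 69.3 FPKM. The coactivator Ppargc1a was listed at 0 and 0.0081 FPKM.

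Other genes of mitochondrial respiration were taken from lists outside the symbol rule. The 4 chain components with other symbols were Cyc1, the cytochrome c1 of complex III, at 119 and 133 FPKM, Cycs, somatic cytochrome c, at 1.82 and 1.90 FPKM, Usmg5, an ATP synthase membrane subunit, at 99.9 and 99.3 FPKM, and the ATP synthase inhibitor Atpif1 at 255 and 259 FPKM. Cycs, the electron carrier between complexes III and IV, was thus listed far below the subunits of complex III and the ubiquitous ones of complex IV. By the rule above 3 pseudogenes match its transcript, covering 10.2% of it. Over all 7 mitochondrial lists with rows in the table, 172 rows lay outside the rule and 169 were tested. Of these 0 were called by Cuffdiff in the authors' deposited table, and 13, or 7.69%, had an unadjusted p under 0.05, against 15.8% of all tested rows. None was called among 30 assembly factors (median log2 ratio -0.07), 16 rows of the citric acid cycle and pyruvate dehydrogenase (-0.04), 76 of the mitochondrial ribosome (-0.06), 22 of protein import (-0.08), 14 of biogenesis (-0.04) and 7 carriers (-0.04). These counts of called rows stand against the same background of 6.52%.

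Tfam, which packages and transcribes mitochondrial DNA, was at 35.1 and 33.5 FPKM. Slc25a4 and Slc25a5, the ADP/ATP carriers, had 434 and 413 FPKM, and 437 and 441 FPKM. Glycolysis, the other main route to ATP, had ratios on 1 side: all 15 rows listed were above 0, with a median of 0.15. Over all rows with at least 1 FPKM, 4937 were above 0 and 5764 below. Most of the 15 ratios were smaller than their SE, such as Gpi1 (0.0016 ± 0.20) and Ldha (0.02 ± 0.22). Those beyond their SE were Hk1, Pfkm, Pfkp, Pgam1 and Slc16a3. Gapdh was listed at only 0.958 and 1.18 FPKM (0.30 ± 0.53). By the authors' test 1 of the 15 was called, or 6.67%, close to the 6.52% of all tested rows. The called row was Slc16a3, a lactate exporter, which rose from 86.0 to 128 FPKM (0.57 ± 0.20 on the log2 scale), with a Cuffdiff adjusted p of 0.0019135 from the authors' deposited table. The difference between the lists was not tested.

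The cells were checked against T cell markers. Cd3g was at 180 and 167 FPKM and Cd4 at 162 and 131 FPKM. By the authors' test Il17a, the defining cytokine of Th17 cells, rose from 56.0 to 568 FPKM and Thy1, a surface marker of T cells, from 66.0 to 96.8 FPKM, whereas Cd3e fell from 39.1 to 28.2 FPKM. All 6 myeloid and all 3 B cell markers listed were under 1 FPKM in both groups. In bulk RNA, fewer cells of a type and less RNA per cell cannot be told apart, and a change of all mitochondrial transcripts together with all others would not show in FPKM.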

How the data were processed

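The 4 libraries were grouped by title, 2 as vehicle and 2 as SAA1. TopHat2, Cuffdiff and the builds mm9 and mm10 are named, without versions or settings, in the submitters' processing notes. One table was used. Per the file headers it is Cuffdiff's gene table, with 1 FPKM value per group from both libraries, a test statistic (a score), a p-value and a q-value per row, all deposited by the authors. The deposited p-value and q-value are the main test, with a row called at an adjusted p under 0.05. Recomputing the Benjamini-Hochberg adjustment over the 11481 tested rows gave the same q (largest gap 5.23e-07), with code tested on simulated data. Per-library tests, foreseen at first, could not be run on group values.

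Log2 ratios used no pseudocount, and medians used rows with at least 1 FPKM in either group. Intervals are the ratio ± 1.96 SE. All 89 members with a RefSeq GRCm38 entry overlap their deposited locus, so coordinates are on mm10, counted from 1. Pseudogene copies were found with blastn 2.17.0 against GENCODE vM21 pseudogenes, with 1 protein-coding transcript per gene. Other values were computed with Python 3.11.15, pandas 2.3.3, numpy 2.4.6 and scipy 1.17.1. The members and gene lists were chosen with earlier results of these data known, so neither gives independent support. Members named by rule are, in each complex, the 2 highest and 2 lowest ratios and the most abundant row, all isoform families, the complex I core, complex II and rows that share a locus. From each other list the rule takes up to 4 called genes. Further genes are named for their roles, with their values known. Some genes that the rule names are left out of the text and plots. Not given in the sources used here are strand settings, the treatment of reads with several matches and the scaling of libraries.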

Additional observations from a re-analysis of the deposited data

How the results depend on the processing

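The count of 0 called members held under each of 6 alternatives. Those with a lower adjusted p limit, a fold minimum or shared-locus rows left out can only remove calls, so their result was fixed. The normal p could not add a call either, since it put 0 members under 0.05 before adjustment and adjustment never lowers a p. An adjusted p under 0.1 and adjustment over rows of at least 1 FPKM could have added calls, and neither did. The median log2 ratios of the complexes, singly and together, shifted by at most 0.05 over 48 alternatives. Some of these alternatives could not alter a given complex. The medians ran from -0.02 to 0.01 for complex I, -0.03 to -0.01 for II, -0.04 to -0.01 for III, -0.03 to 0.02 for IV and -0.07 to -0.03 for V. These ranges cover processing settings only and do not measure sampling error, so they resolve the sign of no complex. Without rows that have a pseudogene copy, complex V was at -0.03 in place of -0.07 and was no longer below complex III (-0.03). At an adjusted p under 0.1, 1 row of the other mitochondrial lists was called in place of 0, Tfb1m, a mitochondrial rRNA methyltransferase named after its values were seen (17.5 and 12.4 FPKM, log2 ratio -0.49 ± 0.25). With a fold minimum of 1.5, 0 glycolysis rows were called in place of 1. Leaving out rows with a pseudogene copy was chosen after seeing the data. No paired analysis was possible because the table gives 1 value per group, with no column for a library. For the same reason leaving out each replicate and count-based or limma fits were not run. Read depth is unknown, so no limit from counts can be given for rows at or near 0.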

Other observations

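Among the 172 rows of the mitochondrial lists outside the symbol rule, 117 of the 167 with at least 1 FPKM had ratios below 0 and 50 above, with a median log2 ratio of -0.06. Over all rows past that minimum 5764 were below 0 and 4937 above, and over rows with at least 50 FPKM in vehicle cells 1293 were below and 812 above. An unadjusted p under 0.05 was found for 13 of the 169 tested rows, 7.69% against 15.8% of all tested rows, and 10 of them were lower with SAA1 and 3 higher. Those lower included the small import chaperones Timm9 (50.8 and 39.7 FPKM) and Timm10 (64.9 and 52.0 FPKM), which work as a complex in the intermembrane space. The lower rows also held Cox15, which makes haem A for complex IV (18.1 and 13.9 FPKM), and Nubpl, an iron-sulphur factor of complex I (10.3 and 7.37 FPKM), and Cox16, Lyrm7, Mrps15, Mrps16, Tomm5 and Tfb1m. The 3 higher rows were Timm23, a channel of the inner membrane (6.54 and 8.91 FPKM), Suclg2 of the citric acid cycle (14.5 and 18.2 FPKM) and Mrpl14 of the mitochondrial ribosome (22.5 and 30.6 FPKM). None passed at an adjusted p under 0.05 by Cuffdiff, and the genes named here were chosen after their values were seen.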
